A study of Mus musculus with 8 samples.

Results

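The Ms4a4 and Ms4a6 genes of the mouse, together with their neighbour Ms4a7, were followed through RNA sequencing of splenic dendritic cells (DC). The members were the rows of the deposited count table whose Entrez Gene ID stands for Ms4a4c, Ms4a4b, Ms4a6b, Ms4a6c, Ms4a6d or Ms4a7, which gave 6 of 27179 genes. They were selected on the measured counts of Ms4a4c, which were higher in panobinostat pDC than in vehicle pDC, so the values of that contrast describe the choice and carry no test here. All libraries came from spleens of C57BL/6 mice that bore a leukemia. Panobinostat, an inhibitor of histone deacetylases, or vehicle was given for 2 days, and plasmacytoid DC (pDC) and conventional DC (cDC) were then sorted. The 4 groups were panobinostat pDC, vehicle pDC, panobinostat cDC and vehicle cDC, with 2 libraries each, every library a pool of 3 to 6 mice. The labels name neither the leukemia model nor the sorting markers, and sorted pools also hold whatever other cells passed the gate. In bulk samples of this kind, fewer cells that express a gene and less RNA per cell cannot be told apart.

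Ms4a genes code for membrane proteins that cross the lipid bilayer several times. The best known are Ms4a1, which codes for the B cell antigen CD20, and Ms4a2, which codes for the beta chain of the high-affinity IgE receptor. In the mouse, Ms4a4b is known from T cells, where it modulates activation, and Ms4a4c is counted among the genes that type I interferon induces. The Ms4a6 genes, Ms4a7 and Ms4a4a are known from monocytes and macrophages. Plasmacytoid DC are specialised in interferon output and conventional DC in presenting antigen to T cells.

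The members lie in 1 cluster on chromosome 19 (mm10, GRCm38), where 21 Ms4a genes span 679 kb from position 10962289 to 11640851. In chromosomal order the members are Ms4a7 (Entrez Gene 109225, 11321039 to 11336146), Ms4a4c (64380, 11404717 to 11427246), Ms4a4b (60361, 11443558 to 11463549), Ms4a6c (73656, 11469353 to 11487182), Ms4a6b (69774, 11518559 to 11530403) and Ms4a6d (68774, 11586606 to 11604804). Ms4a4a (666907) sits between Ms4a7 and Ms4a4c, and Ms4a4d (66607) between Ms4a6b and Ms4a6d. The promoter windows of the 4 members that were higher in panobinostat pDC are shown here because they fall into pairs of like sequence. Each runs from 250 bases before to 50 bases after an annotated start. The bases are 5′ to 3′ on the plus strand of chromosome 19, from RefSeq on GRCm38.p6. Where a gene had more than 1 window, the first is shown. The window of Ms4a4c begins at 11407411, inside the gene as given above, so its start is not the first base of that gene. Capitals mark the longest run of identical bases that the window shares with its partner, Ms4a4b for Ms4a4c and Ms4a6b for Ms4a6c.
Ms4a4c, chr19:11407411-11407710: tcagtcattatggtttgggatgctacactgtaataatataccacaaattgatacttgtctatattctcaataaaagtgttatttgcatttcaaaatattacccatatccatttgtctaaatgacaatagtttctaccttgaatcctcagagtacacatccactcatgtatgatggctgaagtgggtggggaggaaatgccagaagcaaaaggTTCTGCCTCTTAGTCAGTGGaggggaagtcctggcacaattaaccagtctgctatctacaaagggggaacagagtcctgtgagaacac
Ms4a4b, chr19:11443308-11443607: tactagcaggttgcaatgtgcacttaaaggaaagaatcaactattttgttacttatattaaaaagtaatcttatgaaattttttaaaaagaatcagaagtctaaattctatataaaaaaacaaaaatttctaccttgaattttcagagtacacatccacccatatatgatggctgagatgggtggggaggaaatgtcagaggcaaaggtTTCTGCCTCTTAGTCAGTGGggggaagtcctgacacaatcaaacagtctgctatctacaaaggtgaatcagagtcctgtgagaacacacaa
Ms4a6c, chr19:11469118-11469417: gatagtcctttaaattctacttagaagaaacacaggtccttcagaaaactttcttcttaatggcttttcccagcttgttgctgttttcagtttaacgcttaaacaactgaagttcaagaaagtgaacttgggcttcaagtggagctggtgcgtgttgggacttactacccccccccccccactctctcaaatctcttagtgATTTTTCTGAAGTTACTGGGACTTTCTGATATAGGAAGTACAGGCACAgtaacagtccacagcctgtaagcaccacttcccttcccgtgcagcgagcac
Ms4a6b, chr19:11518309-11518608: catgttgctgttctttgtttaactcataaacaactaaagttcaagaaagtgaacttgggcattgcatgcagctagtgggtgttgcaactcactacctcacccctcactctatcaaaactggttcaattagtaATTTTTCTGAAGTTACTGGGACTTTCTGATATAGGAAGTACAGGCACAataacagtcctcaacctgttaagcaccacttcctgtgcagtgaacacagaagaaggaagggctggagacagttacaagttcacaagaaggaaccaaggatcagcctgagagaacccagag

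Over 282 aligned bases the windows of Ms4a4c and Ms4a4b were identical at 228 (80.9%), with a longest shared run of 20 bases. Those of Ms4a6b and Ms4a6c were identical at 189 of 220 aligned bases (85.9%), with a longest shared run of 48 bases. Between the pairs the longest shared run was 7 to 9 bases. RefSeq windows were at hand for 5 of the 6 members, 6 windows in all. Of 4 motifs searched on both strands, none had a match in these 6 windows. The motifs were the core of the interferon-stimulated response element (GAAA, 2 bases of any kind, GAAA), the gamma-activated site (TTCNNNGAA), a core of the myeloid factor PU.1 (GAGGAAGT) and a composite of ETS and interferon regulatory factor sites (GGAA, 2 bases of any kind, GAAA). Of all 32851 windows of the same length, 3.4%, 8.3%, 3.2% and 2.7% held them, in that order.

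The transcripts of close family members also share sequence. Of all 50-base words in the annotated transcripts, 8.5% of those of Ms4a4c, 4.2% of Ms4a4b, 5.7% of Ms4a6b, 6.1% of Ms4a6c, 2.7% of Ms4a6d and 0% of Ms4a7 also occurred in another Ms4a gene. The partner sharing most was Ms4a4b for Ms4a4c and Ms4a6b for Ms4a6c. How reads with several alignments were counted is not given in the sources used here, so the split of reads within each pair is uncertain to that extent.

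Total counts were 13124861 to 20657429 per library. Panobinostat pDC replicate 2 stood apart, with 10745 genes at 1 count or more against 14927 in panobinostat pDC replicate 1 and 16109 to 19950 in the others. It was also the shallowest library. All 10 pDC markers were called higher in pDC than in cDC under panobinostat and under vehicle, and their summed level was 15500 to 21100 CPM in panobinostat pDC and 12800 to 14700 CPM in vehicle pDC. In panobinostat cDC it was 183 to 214 CPM and in vehicle cDC 217 to 276 CPM. In the cDC list of 10 genes, 4 were called lower and 2 higher in pDC than in cDC in both treatments. That list summed to 10600 and 20800 CPM in panobinostat pDC against 7590 and 11300 CPM in vehicle pDC, and to 26100 to 28200 CPM in panobinostat cDC against 17800 to 21400 CPM in vehicle cDC. In pDC 8 of the 10 had a log2 fold change above 0 for panobinostat against vehicle, with a median of 0.50, and their part in the levels of the members was not tested. Neutrophil markers summed to at most 7.29 CPM in any library. Myeloid progenitor markers summed to 22.9 to 42.2 CPM in panobinostat pDC and 49.3 to 49.8 CPM in vehicle pDC, and to 403 to 406 CPM in panobinostat cDC and 261 to 355 CPM in vehicle cDC. Levels are given as CPM, counts scaled to a common library size, with mean ± SD over n = 2 libraries. Each log2 fold change stands with its standard error (SE), both taken from one quasi-likelihood fit of the 8 libraries in edgeR. Adjusted p values come from edgeR's test, corrected by Benjamini and Hochberg's method across all 14238 tested genes, and 0.05 was the threshold. Where nothing says that the pools came from separate experiments, p values measure the spread between these libraries only.

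**Figure D1:**
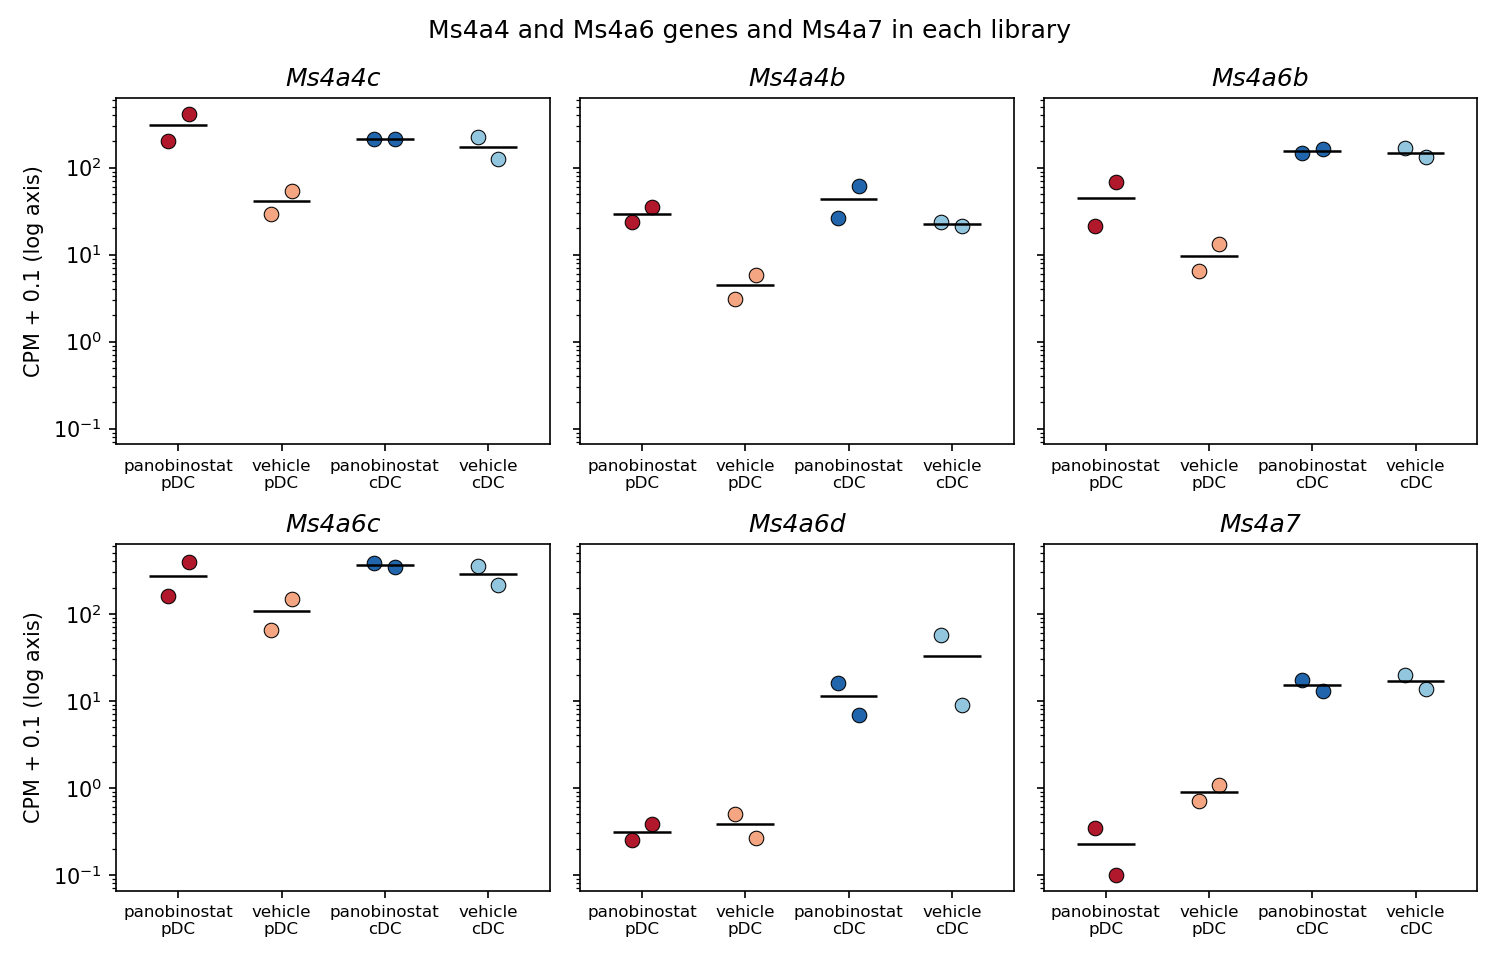
CPM of the 6 members in each library on a log axis, after adding 0.1 so that a value of 0 can be drawn. Points are libraries, replicate 1 on the left, and lines are group means (n = 2). Vehicle pDC lay below the other groups for Ms4a4c, Ms4a4b, Ms4a6b and Ms4a6c, while Ms4a6d and Ms4a7 were under 1 CPM in all pDC libraries.

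In pDC, 4 of the 6 members were higher with panobinostat than with vehicle and did not overlap between the groups. These were Ms4a4c, Ms4a4b, Ms4a6b and Ms4a6c. Ms4a6d and Ms4a7 were close to 0 in pDC of both treatments. The lower panobinostat library exceeded the higher vehicle library in 15.7% of the 14238 genes tested, and the reverse held in 26.5%; since this contrast chose the members, nothing is read from the comparison with that share.

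Ms4a4c had 4083 and 4478 counts in panobinostat pDC, which is 202 and 416 CPM, against 574 and 987 counts in vehicle pDC, which is 29.0 and 53.4 CPM. The lowest panobinostat pDC library was thus above the highest vehicle pDC library. The means were 309 ± 151 CPM in panobinostat pDC and 41.2 ± 17.3 CPM in vehicle pDC (SD, n = 2), a log2 fold change of 2.91 ± 0.50. Panobinostat pDC replicate 2, the library that stood apart, held the highest level. Without it the log2 fold change was 2.24, and without panobinostat pDC replicate 1 it was 3.33. Without vehicle pDC replicate 1 or 2 it was 2.52 or 3.37.

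Ms4a4b, the nearest gene to Ms4a4c among the members, had 23.8 and 34.9 CPM in panobinostat pDC against 2.98 and 5.73 CPM in vehicle pDC. The groups did not overlap. The log2 fold change was 2.75 ± 0.59, and 2.40 without panobinostat pDC replicate 2. Cd3e, which codes for a subunit of the T cell receptor complex, had 0 counts in both panobinostat pDC libraries against 3 and 24 counts in vehicle pDC. Over the whole T cell list of 10 genes, 4 had 0 counts in both panobinostat pDC libraries (Cd3e, Themis, Cd6 and Bcl11b). The summed level of that list was 109 to 130 CPM in panobinostat pDC and 43.5 to 63.7 CPM in vehicle pDC. The 10 NK cell markers summed to 12.9 to 19 CPM in panobinostat pDC, with Gzmb and Eomes at 0 in both libraries, and to 2.32 to 5.78 CPM in vehicle pDC. The part of either cell type in the level of Ms4a4b was not tested.

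The Ms4a6 genes split. Ms4a6b had 21.3 and 67.9 CPM in panobinostat pDC against 6.31 and 13 CPM in vehicle pDC, with a log2 fold change of 2.20 ± 0.60. Ms4a6c had 160 and 391 CPM in panobinostat pDC against 65.7 and 148 CPM in vehicle pDC, with a log2 fold change of 1.37 ± 0.55. Neither gene overlapped between the groups, though for Ms4a6c the gap between 160 and 148 CPM was small. Both values depended on panobinostat pDC replicate 2: without it the log2 fold change was 1.08 for Ms4a6b and 0.52 for Ms4a6c.

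Ms4a6d, known from macrophages, had 3 and 3 counts in panobinostat pDC against 8 and 3 counts in vehicle pDC. These are 0.149 and 0.279 CPM against 0.404 and 0.162 CPM, and the groups overlapped. Ms4a7 had 5 and 0 counts in panobinostat pDC against 12 and 18 counts in vehicle pDC. The library at 0 allows a level of up to 0.279 CPM if 3 counts are set as the floor, which covers counting error only. Ms4a6d passed the filter on low counts only through its cDC libraries. Ms4a7 also reached the minimum in both vehicle pDC libraries.

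Markers of monocytes and macrophages were measured beside these genes. Csf1r, the receptor gene of that lineage, had 152 and 0 counts in panobinostat pDC against 214 and 161 in vehicle pDC, and C1qa, a complement gene of tissue macrophages, had 121 and 0 counts against 81 and 17. The library with both genes at 0 was replicate 2, which among the pDC libraries had the highest levels of Ms4a4c, Ms4a6b and Ms4a6c. All 14 markers summed to 4150 CPM in panobinostat pDC replicate 1 and 7610 CPM in replicate 2. In vehicle pDC they summed to 2600 and 4380 CPM. The panobinostat library with Csf1r and C1qa at 0 thus had the highest sum among the pDC libraries. The list also holds genes that were higher in pDC than in cDC, so its sum is not read as an amount of such cells. In vehicle 3 of the 14 were called higher and 2 lower in pDC, where 5.01% and 4.71% of all tested genes were. Under panobinostat 3 were called higher and 3 lower, where 7.76% and 10.2% were. For panobinostat against vehicle in pDC, 7 of the 14 had a log2 fold change above 0. Here 2 were higher and 3 lower without overlap, and the median was 0.10. The part of such cells in the levels of the members was not tested.

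**Figure D2:**
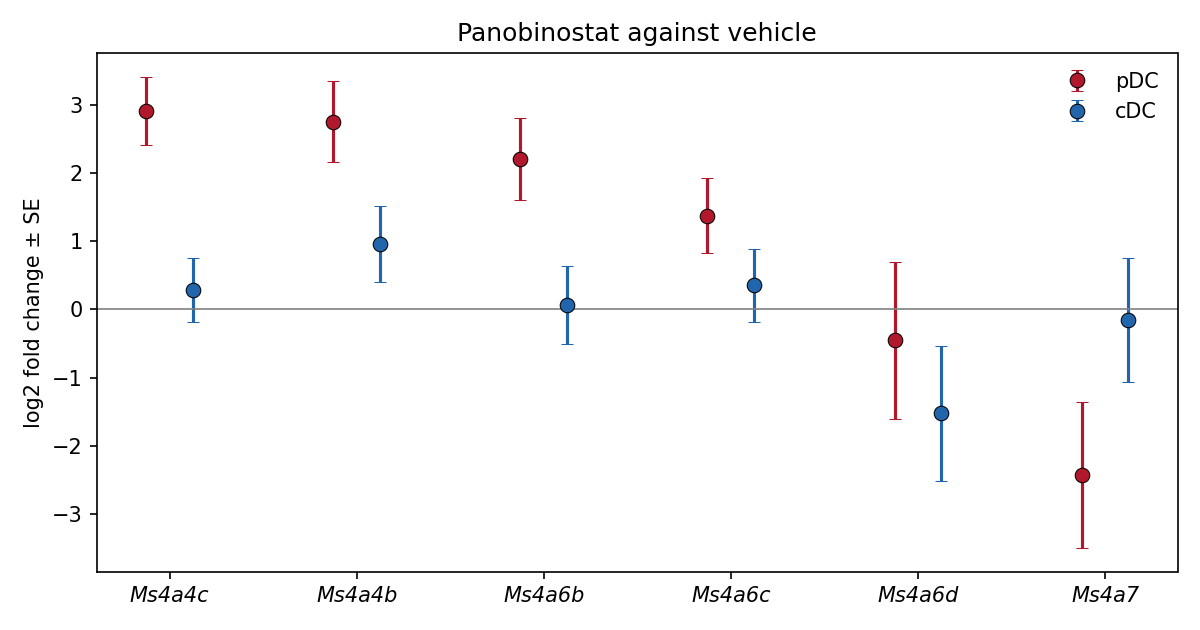
Log2 fold change ± SE of each member for panobinostat against vehicle, in pDC and in cDC, from the fit of all 8 libraries. In pDC the 4 values of Ms4a4c, Ms4a4b, Ms4a6b and Ms4a6c lie between 1.37 and 2.91, and in cDC those of the same genes lie between 0.07 and 0.96.

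The cDC libraries took no part in the choice of the members, so all 6 were tested there. None was called: of 6 members 0 passed the test, and of all 14238 genes 0 passed (0.0%). By edgeR's quasi-likelihood test 206 genes had an unadjusted p under 0.05, none of them a member. That is a smaller share of the 14238 than the 0.05 that would fall there with no differences. As for the other methods, limma-voom called 0 and DESeq2 called 14 genes, of which 0 were members. A p that misses the threshold does not show that the levels were alike.

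Ms4a4c had 211 and 211 CPM in panobinostat cDC against 223 and 125 CPM in vehicle cDC, with a log2 fold change of 0.28 ± 0.47 (adjusted p = 1 by edgeR's quasi-likelihood test). The panobinostat libraries lay inside the range of the vehicle libraries. Without vehicle cDC replicate 2 the value was -0.08. Ms4a6c had 380 and 350 CPM in panobinostat cDC against 357 and 217 CPM in vehicle cDC (0.35 ± 0.54), and Ms4a6b had 148 and 164 CPM against 166 and 131 CPM (0.07 ± 0.57). Both overlapped between the groups.

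Ms4a4b was the only member whose cDC groups did not overlap, where 22.2% of all tested genes were apart in the same direction. It had 26.1 and 61.0 CPM in panobinostat cDC against 23.7 and 21.0 CPM in vehicle cDC, a log2 fold change of 0.96 ± 0.56 with an unadjusted p of 0.133 and an adjusted p of 1 by edgeR. Adjusted p ranged from 0.562 to 1 over the alternatives. Panobinostat cDC replicate 2 set most of the difference, and without it the log2 fold change was 0.23. That library also held 794 counts of Ncr1, an NK cell receptor gene, against 30 in panobinostat cDC replicate 1 and 6 and 139 in vehicle cDC. The summed level of 10 NK cell markers was 52.2 to 287 CPM in panobinostat cDC and 47.0 to 76.1 CPM in vehicle cDC, with no marker at 0 in both libraries of a group. The 10 T cell markers summed to 30.6 and 71.0 CPM in panobinostat cDC replicates 1 and 2. In vehicle cDC they summed to 31.8 and 41.3 CPM. The part of NK cells or T cells in the level of Ms4a4b was not tested.

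Ms4a6d differed between replicates of both groups. It had 15.9 and 6.85 CPM in panobinostat cDC against 56.4 and 8.86 CPM in vehicle cDC, with a log2 fold change of -1.52 ± 0.99 (adjusted p = 1 by edgeR). One vehicle library, replicate 1, held the high value, and without it the log2 fold change was 0.37. The same library had the highest levels of Csf1r (204 CPM, with 143 CPM in vehicle cDC replicate 2) and of C1qa (39.4 CPM, with 24.3 CPM in replicate 2), and in panobinostat cDC the gene and both markers were likewise higher in replicate 1. The 14 monocyte and macrophage markers summed to 1150 to 1320 CPM in panobinostat cDC and 1320 to 1550 CPM in vehicle cDC, with none at 0 in both libraries. In vehicle cDC the summed list ran the other way from the gene. It was 1320 CPM in replicate 1, where Ms4a6d was high, and 1550 CPM in replicate 2. In panobinostat cDC the list and the gene ran the same way. There the list had 1320 CPM in replicate 1 and 1150 CPM in replicate 2. The part of monocytes and macrophages in the level of Ms4a6d was not tested. Ms4a7 had 17.1 and 12.8 CPM in panobinostat cDC against 19.7 and 13.5 CPM in vehicle cDC (-0.15 ± 0.91), and the groups overlapped.

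The pDC and cDC contrasts use different libraries and can be set side by side, but the difference between them was not tested, since the pDC values chose the members. The median log2 fold change of the 6 members was 1.78 in pDC, where that of all tested genes was -0.141, and 0.17 in cDC, where that of all tested genes was 0.003. With scaling by library size only, the medians of all genes moved to -0.285 in pDC and -0.132 in cDC.

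Type I interferon response genes give the background of this pathway, on a list of 35 genes that were all tested. In cDC, 0 were called, 35 had a log2 fold change above 0, and 28 were higher with panobinostat without overlap, where 22.2% of all tested genes did. Their median log2 fold change in cDC was 0.63. In pDC, 28 were above 0, 20 were apart in that direction (15.7% of all tested genes), and the median was 0.53. Ifi27, an interferon-induced gene, had 108 and 114 CPM in panobinostat cDC against 61.6 and 58.3 CPM in vehicle cDC (0.88 ± 0.17, adjusted p = 1 by edgeR, 0.0271 to 1 over the alternatives). Oasl2, of the oligoadenylate synthetase-like proteins, had 55.9 and 91.9 CPM in panobinostat cDC against 25 and 30.2 CPM in vehicle cDC (1.42 ± 0.38). Ifi44 and Ifit2, interferon-induced genes as well, had log2 fold changes of 1.5 ± 0.38 and 0.74 ± 0.25 in cDC.

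Isg15, a ubiquitin-like modifier, and Irf7, the factor that drives interferon alpha genes, had 0.80 ± 0.38 and 0.90 ± 0.33 in cDC, and 0.19 ± 0.37 and -0.39 ± 0.33 in pDC. Ms4a4c stood at 2.91 in pDC and 0.28 in cDC. On the same log2 scale Ifi27 also had the larger value in pDC, at 2.06 ± 0.18 in pDC and 0.88 ± 0.17 in cDC. The larger value was in cDC for Irf7 (-0.39 and 0.90), Isg15 (0.19 and 0.80) and Ifi44 (0.00 and 1.5). The same held for Oasl2 (1.27 and 1.42) and Ifit2 (0.29 and 0.74). For pDC against cDC, 3 of the 35 were called higher and 1 lower in vehicle, where 5.01% and 4.71% of all genes were. Under panobinostat 6 were called higher and 1 lower, where 7.76% and 10.2% of all genes were. Ifi27, Ifi44, Oasl2 and Ifit2 were named for the smallest p by edgeR's test in cDC, and Ms4a4c was chosen for its level in panobinostat pDC. Which cell type holds the larger value is thus partly set by that choice, and nothing is read from it. The pairs of values for pDC and cDC are descriptions of single genes without a test of the difference between cell types.

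The comparison of pDC with cDC asked where the family is expressed without the drug. In vehicle, all 6 members were lower in pDC than in cDC with no overlap of libraries, where 35.5% of all tested genes were apart in that direction and 35.1% in the other. Of the 5 members tested, Ms4a6b and Ms4a6d were called lower and 0 higher, beside 4.71% of all genes called lower, 5.01% called higher and 9.73% called in either direction. Ms4a6d passed the filter only through cDC, where it is high, so its call and its lack of overlap are given as values and are not read against these shares. Ms4a4c was left out of the test because its vehicle pDC values had chosen it, and its lack of overlap is not read against the shares either. Ms4a4c had 29.0 and 53.4 CPM in vehicle pDC against 223 and 125 CPM in vehicle cDC, a log2 fold change of -2.08 ± 0.49.

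Ms4a6b had 6.31 and 13 CPM in vehicle pDC against 166 and 131 CPM in vehicle cDC. The means were 9.67 ± 4.75 CPM in vehicle pDC and 148 ± 24.6 CPM in vehicle cDC (SD, n = 2), a log2 fold change of -3.94 ± 0.64 (adjusted p = 0.017 by edgeR; 1.18e-08 to 0.127 over the alternatives). The call was lost without vehicle pDC replicate 1 (adjusted p = 0.127) or 2 (0.0784), without vehicle cDC replicate 1 (0.0959) or 2 (0.0776) and without panobinostat cDC replicate 2 (0.0501), with values of -4.60 to -3.50.

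Ms4a6d had 0.404 and 0.162 CPM in vehicle pDC against 56.4 and 8.86 CPM in vehicle cDC, a log2 fold change of -6.81 ± 1.27 (adjusted p = 0.0252 by edgeR; 1.35e-08 to 0.167 over the alternatives). Even the lower cDC library was far above both pDC libraries. Without vehicle cDC replicate 1 the value was -4.93 and the call was lost (adjusted p = 0.138), as it was without vehicle pDC replicate 1 (0.152) or 2 (0.167) and without panobinostat cDC replicate 1 (0.0669) or 2 (0.0646).

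The 3 other members did not pass in vehicle. Ms4a7 had 0.605 and 0.973 CPM in vehicle pDC against 19.7 and 13.5 CPM in vehicle cDC (-4.38 ± 1.06, adjusted p = 0.0534; 4.03e-11 to 0.315 over the alternatives). Ms4a4b had 2.98 and 5.73 CPM in vehicle pDC against 23.7 and 21.0 CPM in vehicle cDC (-2.36 ± 0.58, adjusted p = 0.0571). Both lay just above the threshold and were called in 8 and 9 of 16 alternatives. With the replicate number as a block, Ms4a4b was called (-2.48, adjusted p = 0.0436). Without panobinostat pDC replicate 1 or 2, a group outside this contrast, both were called (adjusted p = 0.000751 or 0.000805 for Ms4a7, 0.0135 or 0.0133 for Ms4a4b), and so was Ms4a6c (0.043 or 0.045). Ms4a6c had 65.7 and 148 CPM in vehicle pDC against 357 and 217 CPM in vehicle cDC (-1.43 ± 0.55, adjusted p = 0.177).

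**Figure D3:**
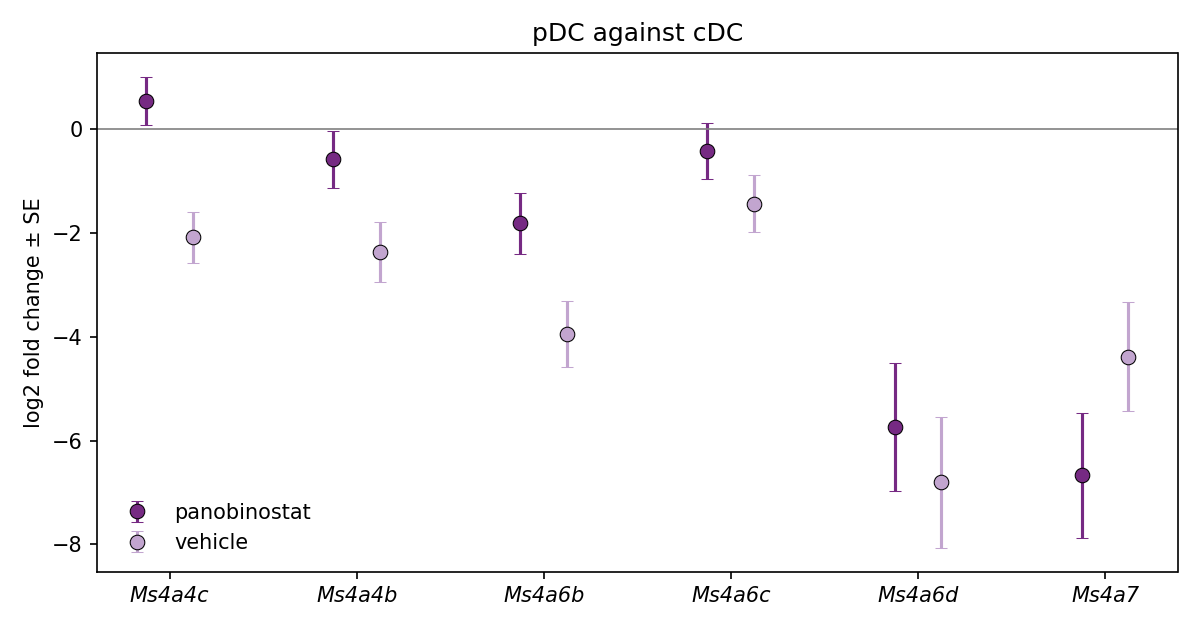
Log2 fold change ± SE of each member for pDC against cDC, in panobinostat and in vehicle, from the fit of all 8 libraries. Ms4a4c lies at 0.55 in panobinostat and -2.08 in vehicle, while Ms4a6d and Ms4a7 lie at or below -4.38 in both.

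Under panobinostat, 3 members were lower in pDC than in cDC without overlap (Ms4a6b, Ms4a6d and Ms4a7), where 38.0% of all tested genes were and 24.7% were apart in the other direction, and 3 overlapped (Ms4a4c, Ms4a4b and Ms4a6c). Of the 5 members tested, Ms4a6d and Ms4a7 were called lower and 0 higher, beside 10.2% of all genes called lower, 7.76% called higher and 18.0% called in either direction. Here too the call of Ms4a6d and its lack of overlap are not read against these shares. This comparison shares no library with the one in vehicle, but it holds the pDC library that stood apart.

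Ms4a4c had 202 and 416 CPM in panobinostat pDC against 211 and 211 CPM in panobinostat cDC, so the cDC libraries lay within the pDC range (0.55 ± 0.47, no test). Without panobinostat pDC replicate 2 this value was -0.12. Ms4a4b had 23.8 and 34.9 CPM in panobinostat pDC against 26.1 and 61.0 CPM in panobinostat cDC (-0.57 ± 0.55, adjusted p = 0.518 by edgeR), and Ms4a6c had 160 and 391 CPM against 380 and 350 CPM (-0.41 ± 0.54, adjusted p = 0.641). Both overlapped.

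Ms4a6b kept a gap, with 21.3 and 67.9 CPM in panobinostat pDC against 148 and 164 CPM in panobinostat cDC (-1.81 ± 0.59). It did not pass (adjusted p = 0.0819 by edgeR; 0.00654 to 0.258 over the alternatives). Without panobinostat pDC replicate 2 it was called, at -2.93 (adjusted p = 0.00654), and without replicate 1 it was called as well, at -1.20 (0.0441).

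Ms4a7 had 0.248 and 0 CPM in panobinostat pDC against 17.1 and 12.8 CPM in panobinostat cDC (-6.67 ± 1.21, adjusted p = 0.0177 by edgeR; 1.99e-12 to 0.151 over the alternatives). Ms4a6d had 0.149 and 0.279 CPM in panobinostat pDC against 15.9 and 6.85 CPM in panobinostat cDC (-5.74 ± 1.24, adjusted p = 0.0288 by edgeR; 1.07e-05 to 0.141 over the alternatives). The call of Ms4a7 was lost without panobinostat cDC replicate 1 (0.108) or 2 (0.0932) and without vehicle cDC replicate 1 (0.0637) or 2 (0.061), and that of Ms4a6d without panobinostat cDC replicate 1 (0.141) or 2 (0.0952), without vehicle pDC replicate 1 (0.0592) or 2 (0.0589) and without vehicle cDC replicate 1 (0.0532). In a fit of the 4 panobinostat libraries alone neither passed (0.151 and 0.126), and Ms4a6d also did not pass with limma-voom (0.0595). Without panobinostat pDC replicate 1 the remaining pDC library had 0 counts of Ms4a7, so no fold is given for that setting.

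Ordered by mean level over the groups, Ms4a4c ran from panobinostat pDC over panobinostat cDC and vehicle cDC to vehicle pDC, and only the last step, to vehicle pDC, had no overlap of libraries. For Ms4a4b the order was panobinostat cDC, panobinostat pDC, vehicle cDC and vehicle pDC, with overlap at the first step alone. At the next step, though, the nearest libraries of panobinostat pDC and vehicle cDC stood at 23.8 and 23.7 CPM, almost the same level. Ms4a6b and Ms4a6c shared the order panobinostat cDC, vehicle cDC, panobinostat pDC and vehicle pDC. In Ms4a6b only the cDC groups overlapped, whereas in Ms4a6c only vehicle pDC was apart. Ms4a6d and Ms4a7 shared the order vehicle cDC, panobinostat cDC, vehicle pDC and panobinostat pDC, with a gap between the cDC and pDC groups in both. Their pDC groups overlapped in Ms4a6d and did not in Ms4a7.

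Per length of annotated exons, levels can be set between genes. In panobinostat pDC, Ms4a4c stood at 179 ± 87.7 and Ms4a6c at 150 ± 88.9 CPM per kb, against 23.9 ± 10 and 58.0 ± 31.6 CPM per kb in vehicle pDC (SD, n = 2). Ms4a6b (16.6 CPM per kb), Ms4a4b (6.19), Ms4a6d (0.139) and Ms4a7 (0.0723) followed in panobinostat pDC. In panobinostat cDC, Ms4a6c led with 198 ± 11.5 CPM per kb, ahead of Ms4a4c at 122 and Ms4a6b at 58.1, and in vehicle cDC these genes had 156 ± 53.6, 101 ± 40.0 and 55.4 ± 9.20 CPM per kb. Ms4a4b is annotated with 4750 exon bases where the others have 1536 to 2680, so its value per kb depends on that annotation. Within a group, the ranges of Ms4a4c and Ms4a6c overlapped in panobinostat pDC.

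The balance within each pair of close genes was also read from the counts, where gene length does not change between libraries. Ms4a6c had 7.49 and 5.76 counts per count of Ms4a6b in panobinostat pDC, against 10.4 and 11.4 in vehicle pDC. In panobinostat cDC the ratio was 2.57 and 2.14, against 2.15 and 1.66 in vehicle cDC. All 4 pDC libraries lay above all 4 cDC libraries, and within pDC the panobinostat libraries lay below the vehicle libraries. The ratio of Ms4a4c to Ms4a4b was 8.49 and 11.9 in panobinostat pDC against 9.73 and 9.31 in vehicle pDC. It was 8.07 and 3.45 in panobinostat cDC against 9.41 and 5.95 in vehicle cDC, so that the ranges overlapped between panobinostat and vehicle within pDC and within cDC. Under panobinostat the pDC libraries lay above the cDC libraries.

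**Figure D4:**
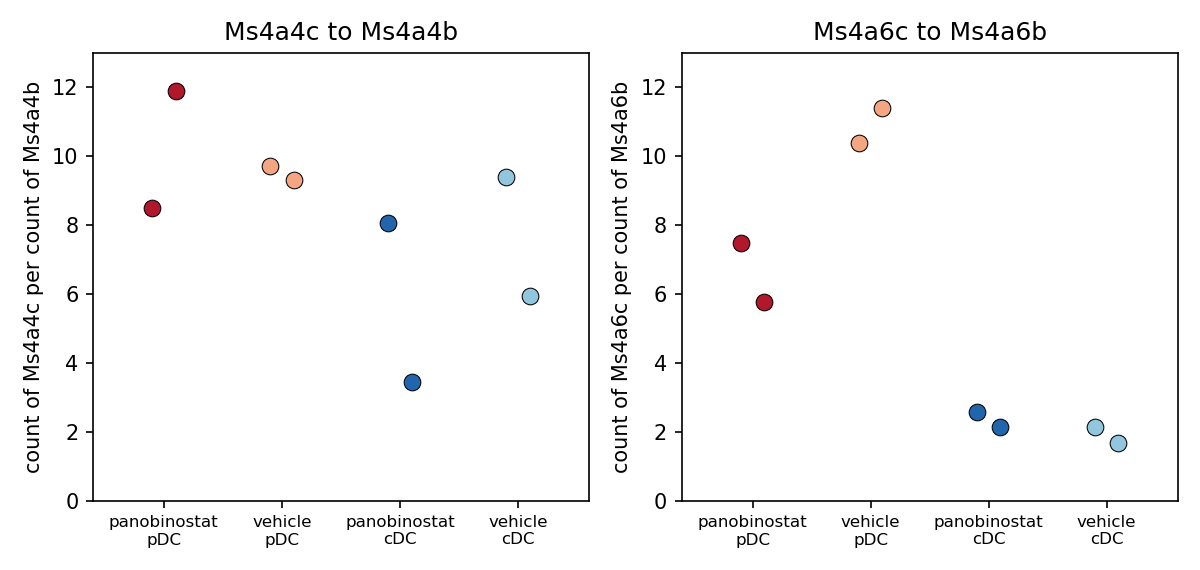
Counts of Ms4a4c per count of Ms4a4b and of Ms4a6c per count of Ms4a6b in each library, on linear axes from 0, with points for libraries. The second ratio was 5.76 to 11.4 in pDC libraries and 1.66 to 2.57 in cDC libraries.

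Along the cluster, the 4 members that were higher in panobinostat pDC lay between Ms4a4a and Ms4a4d. Ms4a4a, known from macrophages, had 43 and 34 counts in panobinostat pDC against 11 and 3 in vehicle pDC, and Ms4a4d had 27 and 18 against 1 and 11. Neither overlapped between the groups, with log2 fold changes of 2.85 ± 1.21 and 2.20 ± 1.09. Between them, the long noncoding RNA gene BE692007 (79 and 0 counts in panobinostat pDC, 27 and 16 in vehicle pDC) and Gm8369 (19 and 0 against 7 and 23) overlapped. Outside that stretch AW112010, a long noncoding RNA gene, was also higher without overlap, with 43.5 and 154 CPM in panobinostat pDC against 12.3 and 30.1 CPM in vehicle pDC. Ms4a7 was lower and Ms4a6d overlapped, as given above, and Ms4a1 overlapped with 281 and 543 counts in panobinostat pDC against 98 and 404 in vehicle pDC. The 10 B cell markers summed to 162 to 392 CPM in panobinostat pDC and 125 to 189 CPM in vehicle pDC, with none at 0 in both libraries of a group.

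Of the other Ms4a genes and the related Tmem176a and Tmem176b, 17 on the list, 16 were in the count table and 7 were tested. The 9 others had at most 7 counts in any library, and 4 of them 0 in all libraries. In cDC 0 of the 7 were called for panobinostat against vehicle. For pDC against cDC in vehicle 2 of 7 were called lower (4.71% of all genes), and under panobinostat 1 of 7 (10.2% of all genes). The genes called in vehicle were Tmem176a and Tmem176b, and Tmem176a was the one called under panobinostat. They are genes of an ion channel pair known from antigen-presenting cells. Tmem176a had 14.8 and 20.9 CPM in vehicle pDC against 341 and 237 CPM in vehicle cDC (-4.02 ± 0.43, adjusted p = 0.00413 by edgeR). In panobinostat it had 36.5 and 74.3 CPM in pDC against 206 and 181 CPM in cDC (-1.81 ± 0.39, adjusted p = 0.0291). Tmem176b had -3.76 ± 0.51 in vehicle (adjusted p = 0.00917) and -1.69 ± 0.47 in panobinostat (adjusted p = 0.055).

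Ms4a4a, Ms4a1 and Ms4a14, a further family gene, did not pass between the cell types. In vehicle, Ms4a4a and Ms4a1 had -3.26 ± 1.22 (adjusted p = 0.164 by edgeR) and -2.59 (0.234). In panobinostat, Ms4a14 had 0 and 0 counts in pDC against 18 and 6 in cDC (adjusted p = 0.086), and Ms4a1 had -1.70 ± 1.11 (0.327).

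**Figure D5:**
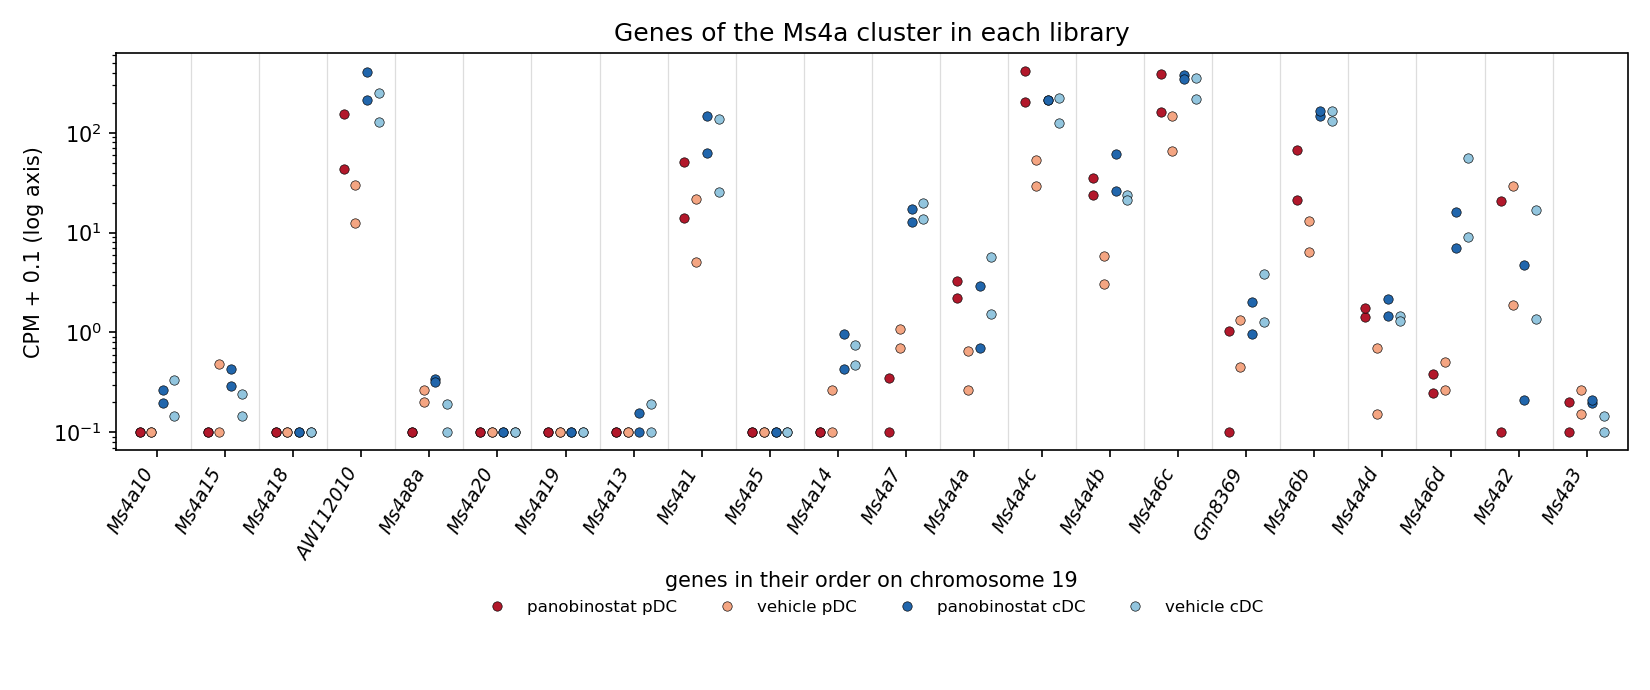
CPM of the Ms4a genes, AW112010 and Gm8369 in each library, after adding 0.1 and on a log axis, with the genes in their order on chromosome 19 but not to scale. From Ms4a4a to Ms4a4d the panobinostat pDC points lie above the vehicle pDC points except at Gm8369, while 9 of the Ms4a genes have at most 7 counts in any library.

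Likeness of pattern was measured over the 8 libraries as the root mean square (RMS) difference of log2 CPM, each gene centred on its own mean, against the 8285 genes whose log2 CPM averaged 3 or more. The libraries of a group and the outlying pDC library shape this measure for every gene. The genes most like Ms4a4c were Klrk1, an activating NK receptor gene (0.404 log2 units), Ccl3, a chemokine gene (0.42), Stat4, a signal transducer gene (0.437), Ifit1, an interferon-induced gene (0.443), and Siah1b, a ubiquitin ligase gene (0.501). Klrk1 had 178 and 487 CPM in panobinostat pDC, 23.0 and 42.8 CPM in vehicle pDC, 138 and 173 CPM in panobinostat cDC and 91.4 and 105 CPM in vehicle cDC. Ms4a4b, at 0.515, was the member most like Ms4a4c, and Ms4a4c was among the 5 genes most like Ms4a4b. The gene most like Ms4a6b was Tmem176b (0.229), with Tmem176a also among its 5 (0.367). Ms4a6c had 3 histone H2B genes at the head of its 5, H2bc8, H2bc6 and H2bc4 (0.265 to 0.291). Ms4a6d and Ms4a7 had no gene closer than 0.865 and 0.582.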

How the data were processed

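The table deposited by the authors holds raw read counts as whole numbers, with genes in rows under their Entrez IDs and the 8 libraries in columns. Per the submitters' processing notes, the tools included cutadapt (2.1), HISAT2 (2.1.0) and featureCounts (Subread 2.0.0), and the build was mm10. Annotation, strandedness and multimapping rules: not given in the sources used here. Per the labels' protocols, libraries were made from low-input RNA, and the extraction text speaks of leukemia cells where the titles name DC. Column names with LBH were taken as panobinostat and those with D5W as vehicle.

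The members and lists were chosen with earlier results of these data known. Low genes were removed with filterByExpr (at least 10 counts, total at least 15), libraries were scaled by TMM, and all 8 were fitted in edgeR (4.0.16, R 4.3.3) with 1 coefficient per group and 4 residual degrees of freedom. SE values come from the quasi-likelihood statistic, and a prior count of 2 entered log2 CPM. Total counts per library were 13124861 to 20657429, and the SE values reflect the spread between libraries as well as counting error. The contrasts were panobinostat against vehicle in cDC (6 members tested) and pDC against cDC in vehicle and in panobinostat (5 tested, without Ms4a4c). Named genes were the members, up to 4 other family genes per comparison by smallest p, the 4 interferon response genes with the smallest p in cDC with Ifi27, Isg15 and Irf7, the 5 genes most like Ms4a4c, and defining markers of other cell types, some of which are not reported here. Ms4a4d, AW112010, BE692007, Gm8369, the genes most like other members and a list of basophil and mast cell genes were named after their values were seen.

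Deviations of libraries from group means correlated between same-number libraries of all 6 pairs of groups (0.15 to 0.49 over genes), so the numbers were taken to mark pairs. The labels do not say what a number stands for. The main fit has no block, and all SE and p values are from it unless an alternative, such as the block, is named. Others were RLE and library size scaling, no filter and a stricter one, DESeq2 (1.42.0), limma-voom (3.58.1), fits of only the compared groups, and leaving out each library. The fits were tested on simulated data. Exon lengths are from GENCODE on GRCm38, and gene positions and promoters from RefSeq on GRCm38.p6.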

Additional observations from a re-analysis of the deposited data

Results flagged for a closer look

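With panobinostat, Tmem176a and Tmem176b were higher in pDC and lower in cDC, without overlap of libraries in either. Of all tested genes, 15.7% were apart and higher in pDC and 18.8% apart and lower in cDC. Tmem176a had 36.5 and 74.3 CPM in panobinostat pDC against 14.8 and 20.9 CPM in vehicle pDC, and 206 and 181 CPM in panobinostat cDC against 341 and 237 CPM in vehicle cDC. Its log2 fold change was 2.21 higher in pDC than in cDC. Tmem176b had 60.3 and 164 CPM in panobinostat pDC against 24.7 and 36.5 CPM in vehicle pDC, and 366 and 357 CPM in panobinostat cDC against 462 and 370 CPM in vehicle cDC, a difference of 2.07. In cDC neither gene was called. The log2 fold changes there were -0.58 ± 0.38 for Tmem176a and -0.20 ± 0.46 for Tmem176b. Unadjusted p was 0.18 and 0.671 by edgeR's quasi-likelihood test. For Tmem176b the panobinostat and vehicle cDC libraries nearest each other were at 366 and 370 CPM. In pDC the log2 fold changes were 1.63 ± 0.39 for Tmem176a and 1.87 ± 0.47 for Tmem176b. Over the alternatives they ran from 0.98 to 2.05 and from 0.92 to 2.41. The share of all tested genes that were apart in both ways at once was not counted. The differences between the cell types were not tested.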

How the results depend on the processing

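For panobinostat against vehicle in cDC, 0 members were called under all 16 alternatives, and the count of genes, 0, was 14 with DESeq2 and 0 without any 1 library. For pDC against cDC in vehicle, 2 members and 1385 genes were called. With RLE scaling, no filter, the stricter filter, DESeq2 or only the compared groups 4 members were called, and DESeq2 and only the compared groups called 2880 and 4491 genes. Without 1 library the counts were 0 to 5 members and 288 to 5531 genes. For pDC against cDC in panobinostat, 2 members and 2557 genes were called; only the compared groups gave 0 members and 161 genes, DESeq2 4495 genes, and leaving out 1 library 0 to 3 members and 346 to 9796 genes. The replicate block gave 0, 3 and 2 members and 0, 1241 and 2302 genes in these comparisons; it changed the call of Ms4a4b in vehicle and of no other member.

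Some directions turned, none in a called value. Without 1 library, values in cDC ran from -0.08 to 0.76 for Ms4a4c, from -0.09 to 0.26 for Ms4a6b, from -2.31 to 0.37 for Ms4a6d and from -0.40 to 0.15 for Ms4a7. With library size scaling Ms4a6b was at -0.07. For pDC against cDC in panobinostat, the values without 1 library ran from -1.06 to 0.16 for Ms4a4b and from -1.25 to 0.09 for Ms4a6c. The cause was not tested. Depth limits Ms4a6d and Ms4a7 in pDC, where they had 18 counts or fewer per library.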

Other observations

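Ms4a2, the gene of the IgE receptor beta chain carried by mast cells and basophils, was higher in replicate 1 than in replicate 2 of every group. Its counts in replicates 1 and 2 were 413 and 0 for panobinostat pDC, 580 and 33 for vehicle pDC, 97 and 2 for panobinostat cDC, and 359 and 27 for vehicle cDC. A list of 8 basophil and mast cell genes, written after these values were seen, summed to 123 and 0 CPM for panobinostat pDC, 139 and 12.9 CPM for vehicle pDC, 43.3 and 11.8 CPM for panobinostat cDC, and 93.5 and 12.2 CPM for vehicle cDC. Hdc, the histamine-forming enzyme gene on that list, had 1400 and 0, 1972 and 95, 558 and 139, and 1428 and 167 counts in the same libraries. Fcer1a, Cd200r3, Il4 and Gata1 of the list were likewise higher in replicate 1 of every group, but Mcpt8, Prss34 and Cpa3 were not. In panobinostat cDC, replicates 1 and 2 had 1 and 6 counts of Mcpt8, 1 and 10 of Prss34, and 8 and 17 of Cpa3.

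Ms4a1 ran the other way, higher in replicate 2 than in replicate 1 of every group. Its counts were 281 and 543 for panobinostat pDC, 98 and 404 for vehicle pDC, 1297 and 2691 for panobinostat cDC, and 540 and 2945 for vehicle cDC. AW112010, the long noncoding RNA gene of the cluster, had 878 and 1656 counts in panobinostat pDC against 243 and 557 counts in vehicle pDC. In cDC it had 4444 and 7569 counts with panobinostat against 2759 and 5380 with vehicle. Its groups were apart in pDC and overlapped in cDC.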
